A study of Mus musculus with 24 samples.

Results

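The matrix metalloproteinases (MMPs), the ADAMTS proteases and the tissue inhibitors of metalloproteinases (TIMPs) were taken from the gene table by symbol. Of its 25941 genes, 44 carried such a symbol: 21 Mmp, 19 Adamts and 4 Timp. The 31 whose mean over the 24 libraries reached 0.5 CPM (reads scaled to a common library size) are described here, namely 14 Mmp, 13 Adamts and all 4 Timp, and all 31 were among the 14528 genes tested. Mmp13, at a mean of 0.592 CPM, lay just inside that limit, and Mmp27, at 0.482 CPM, just outside it.

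The proteases of both families are zinc-dependent enzymes made as inactive proenzymes and activated by removal of a propeptide. MMPs cleave collagens, gelatin, elastin and other matrix proteins, and several release growth factors and cytokines. ADAMTS enzymes are secreted proteases with thrombospondin repeats that cut proteoglycans such as aggrecan and versican, or trim the propeptides of procollagens. TIMPs bind the active site of these enzymes and block it. In the arterial wall the balance between the proteases and the TIMPs governs how elastin, collagen and proteoglycans are turned over, and interleukin-1 beta (IL-1β) is a known inducer of several MMP genes.

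The libraries came from thoracic aorta of adult wild-type C57BL/6 males aged 10 to 12 weeks. Over 3 weeks 8 mice were given celecoxib in the feed (100 mg/kg/day), 8 were given rofecoxib in the feed (50 mg/kg/day) and 8 controls had the feed without drug. Every mouse, controls included, was injected intraperitoneally with IL-1β at 10 ug/kg 4 h before tissue was taken at zeitgeber time 11 (ZT11), so no library shows the aorta without IL-1β. Celecoxib and rofecoxib are inhibitors of cyclooxygenase-2 built on a pyrazole with a sulfonamide and on a furanone with a methylsulfone, respectively, and were given at different doses. The design text calls the 8 libraries of a group biological replicates.

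Library totals ran from 21668798 to 21700121 counted reads, so depth did not differ between the groups. Markers of smooth muscle summed to 28299 to 45356 CPM over all libraries, endothelial markers to 694 to 1323 CPM and fibroblast markers to 4025 to 6325 CPM, and no marker of these lists was at 0 in all libraries. The tissue pieces also held markers of fat, summing to 1226 to 6922 CPM for the general adipocyte list, and the level of fat markers differed between the groups, as given beside the results below. In bulk tissue, fewer cells of a type and less RNA per cell cannot be told apart, and this applies to every difference below.

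8 members lie in 1 cluster on mouse chromosome 9, from position 7272312 to 7699787 on mm9, a span of 427 kb: Mmp13, Mmp12, Mmp3, Mmp10, Mmp8, Mmp27, Mmp20 and Mmp7. Although neighbours, they were expressed at very different levels, from a mean of 457 CPM for Mmp3 to 0.0077 CPM for Mmp20. Promoter windows of these genes are shown because Mmp3 is the most abundant member per length and its neighbours are among the scarcest. The motif searched was TGANTCA, the core of the binding site of the AP-1 factors, which reads the same on both strands when reversed and complemented. In the RefSeq windows on GRCm38.p6, each from 250 bases before to 50 bases after a start, 30 of the 44 members had an entry (19 of the 31 described). The motif stood in 2565 of 32851 promoters (7.81%) and in a window of 6 members, Mmp3, Mmp7, Mmp10, Mmp12, Mmp13 and Mmp20, all from the chromosome 9 cluster. All 8 genes of the cluster had an entry, so the members that could not be searched all lie outside it. Below are the 100 bases before the start, 5′ to 3′ on the plus strand of GRCm38.p6, with the motif in capitals: Mmp13 at chr9:7272414-7272513, Mmp12 at chr9:7347274-7347373 (its second window, the first having no match), Mmp3 at chr9:7445722-7445821, Mmp10 at chr9:7502242-7502341 and Mmp8 at chr9:7558329-7558428.
Mmp13: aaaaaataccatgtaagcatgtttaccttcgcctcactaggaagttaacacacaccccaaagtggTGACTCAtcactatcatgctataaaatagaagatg
Mmp12: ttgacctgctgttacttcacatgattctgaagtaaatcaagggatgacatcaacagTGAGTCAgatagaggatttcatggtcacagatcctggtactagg
Mmp3: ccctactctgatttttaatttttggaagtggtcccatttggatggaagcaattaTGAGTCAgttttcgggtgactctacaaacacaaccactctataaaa
Mmp10: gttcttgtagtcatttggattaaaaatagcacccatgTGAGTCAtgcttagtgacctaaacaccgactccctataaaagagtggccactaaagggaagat
Mmp8: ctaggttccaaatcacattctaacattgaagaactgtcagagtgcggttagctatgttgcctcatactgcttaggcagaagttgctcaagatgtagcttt
The first motif base stood 35 bases before the start in Mmp13, 44 in Mmp12, 46 in Mmp3 and 63 in Mmp10. The Mmp8 window held no match. Members with the motif differed widely in level: in control aorta Mmp3 averaged 394 CPM, while Mmp12 averaged 1.247, Mmp13 averaged 0.6251 and Mmp10 averaged 0.0823. A match describes letters in a window and does not show a bound site.

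Per length, the aorta given IL-1β was led by 1 protease and 2 inhibitors. In the controls Mmp3 (stromelysin-1, which cleaves proteoglycans, fibronectin and laminin and activates other MMPs) stood at 219 CPM per kb of exon, Timp1 at 195 and Timp2 at 179. Adamts1 followed at 81.9 CPM per kb, then Timp3 at 67.3, Adamts8 at 55.3, Adamts15 at 41.9, Mmp23 at 34.0, Mmp2 at 27.8, Adamts2 at 26.2 and Mmp17 at 23.9. Adamts1 and Adamts15 are proteoglycan-cleaving enzymes, and Adamts2 removes the amino propeptide of fibrillar procollagens. The collagenases Mmp8 and Mmp13 were scarce, at 1.38 and 0.234 CPM per kb, and the lowest described members were the macrophage elastase Mmp12 at 0.172 and Adamts12 at 0.139. On the CPM scale, 10 described members reached 100 CPM in the controls and 11 stayed under 10 CPM.

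**Figure D1:**
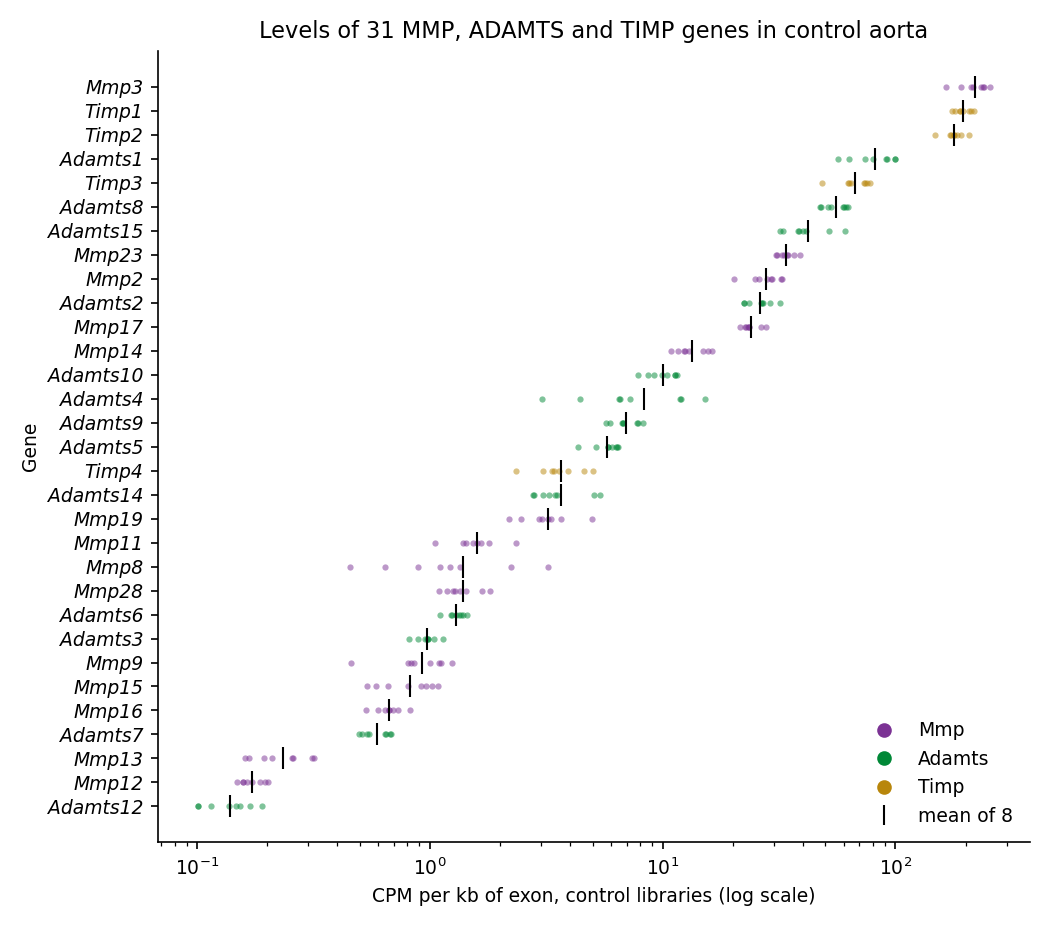
Level of the 31 described members in the 8 control libraries, in CPM per kb of exon on a log axis, with a point for each library. Mmp3, Timp1 and Timp2 lead at 219, 195 and 179 CPM per kb, and Adamts12 is lowest at 0.139.

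Among the 8 control libraries the coefficient of variation ran from 7.62% for Timp1 to 65.6% for Mmp8, with a median of 14.4% over the 31 members. Adamts4, at a mean of 40.1 CPM with an SD of 20.3, also spread widely.

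Rofecoxib was set against plain chow, with all mice given IL-1β. The proteases Mmp23, Mmp17 and Mmp16 were lower and Adamts7 was higher. These 4 of 31 members called at an adjusted p under 0.05 (edgeR, Benjamini-Hochberg over all genes) make 12.9% of the members, beside 6.94% of all genes called in this comparison (1008 of 14528). By direction, 3 members were lower (9.68%, beside 3.06% of all genes) and 1 was higher (3.23%, beside 3.88%). At an unadjusted p under 0.05 there were 12 members (38.7%, beside 28.2%). The shares of members were not tested against those of all genes.

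Mmp23 (chr4:155024562-155027695 on mm9, an atypical MMP anchored in the membrane by its amino-terminal part) stood at 72.0 to 90.7 CPM in the controls, with a median of 78.8, and at 56.1 to 72.3 CPM with rofecoxib, with a median of 61.3. Rofecoxib replicate 8, at 72.3 CPM, reached into the control range, whose lowest library was at 72.0, and the other 7 lay below every control. Its mean was 79.5 ± 6.35 CPM in the controls and 62.0 ± 5.16 CPM with rofecoxib (SD, n = 8 per group), and it fell by 0.36 on the log2 scale (SE 0.07, edgeR adjusted p = 0.0079). The call was kept without each of the 24 libraries in turn. With celecoxib the range was 64.7 to 99.6 CPM with a median of 71.6, the log2 fold change against control being −0.09 (SE 0.07, adjusted p = 0.595).

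Mmp17 (chr5:130089887-130114288 on mm9, MT4-MMP, held to the cell surface by a lipid anchor) stood at 142 to 183 CPM in the controls (median 155) and 103 to 156 CPM with rofecoxib (median 120). 7 of the 8 rofecoxib libraries lay below every control, and replicate 8, at 156 CPM, lay inside the control range. Its mean was 158 ± 13.96 CPM in the controls and 124 ± 17.7 CPM with rofecoxib (SD, n = 8 per group), and it fell by 0.35 on the log2 scale (SE 0.09, edgeR adjusted p = 0.024). Without rofecoxib replicate 7, control replicate 1 or control replicate 2 the adjusted p was 0.0506 to 0.0564, just past the threshold. With celecoxib it stood at 111 to 173 CPM (median 148), a difference of −0.16 (SE 0.09, adjusted p = 0.445).

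Mmp16 (chr4:17779838-18046494 on mm9, MT3-MMP, a membrane-spanning enzyme that can activate the Mmp2 proenzyme) was a low-level member at 4.60 to 7.12 CPM in the controls (median 5.76), 4.12 to 5.77 with celecoxib (median 5.14) and 4.03 to 5.52 with rofecoxib (median 4.62). Only 3 of 8 rofecoxib libraries lay below every control, so the groups overlapped. It fell by 0.31 on the log2 scale (SE 0.09, edgeR adjusted p = 0.044), and this call was lost in 13 of the 24 fits that leave out 1 library, namely celecoxib replicate 1, rofecoxib replicates 1, 2, 3, 4, 5 and 7, and control replicates 1, 2, 5, 6, 7 and 8, with adjusted p up to 0.092. It was also lost with library size alone (adjusted p = 0.057), with no expression filter (0.086) and with only the 2 groups compared in the fit (0.057).

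Adamts7 (chr9:90057614-90103111 on mm9, a protease whose known substrates include cartilage oligomeric matrix protein and thrombospondin-1) was the only member whose rofecoxib and control libraries did not overlap, beside 0.275% of all genes higher without overlap. It stood at 3.11 to 4.25 CPM in the controls (median 3.73), 3.16 to 5.89 with celecoxib (median 4.67) and 4.60 to 6.32 with rofecoxib (median 5.22). Its mean was 3.71 ± 0.48 CPM in the controls and 5.33 ± 0.55 CPM with rofecoxib (SD, n = 8 per group). On the log2 scale it rose by 0.52 (SE 0.11, edgeR adjusted p = 0.011), and the call was kept without each of the 24 libraries in turn. With celecoxib 6 of 8 libraries lay above every control, and the difference of 0.32 (SE 0.11) had an adjusted p of 0.236. On the table's coordinates Adamts7 overlaps Tbc1d2b, which averaged 88.1 CPM and differed by 0.11 with rofecoxib (adjusted p = 0.609). The strand setting of the counting is not stated, so reads of the overlapping genes cannot be told apart.

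**Figure D2:**
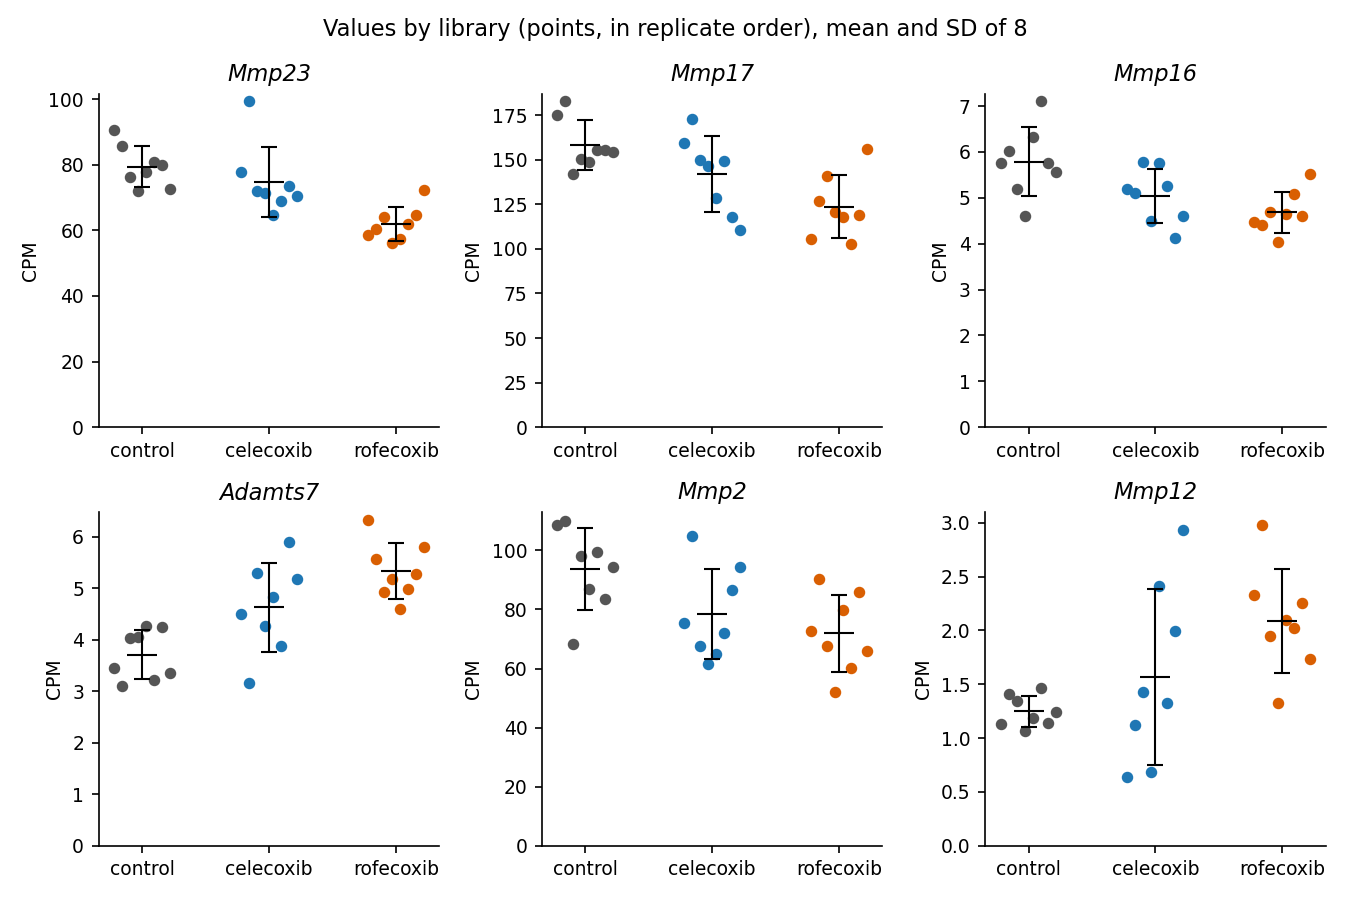
TMM-scaled CPM of Mmp23, Mmp17, Mmp16, Adamts7, Mmp2 and Mmp12 in each library of the control, celecoxib and rofecoxib groups (8 points each), with the group mean and SD. With rofecoxib 7 of 8 libraries lie below every control for Mmp23 and Mmp17, and all 8 lie above every control for Adamts7.

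Fat markers moved with this comparison. The general adipocyte markers summed to 1392 to 6047 CPM in the controls (median 2776) and 1691 to 6922 CPM with rofecoxib (median 5024), and 3 of the 12 (Fabp4, Lep and Pparg) were called higher. Rofecoxib replicate 8, the library inside the control range for Mmp23 and Mmp17, had the lowest sum of its group, 1691 CPM. It also had the highest smooth muscle sum of its group, 42308 CPM. Its endothelial, macrophage and neutrophil sums were the lowest of the group, at 694, 170 and 21.3 CPM. In the same library Mmp16 stood at 5.52 CPM, highest of its group and inside the control range. Adamts7 stood at 5.80 CPM there, above every control. With the mean level of the general adipocyte markers as a covariate no member was called, all 4 keeping their direction. In that edgeR fit Mmp23 was at −0.30 (adjusted p = 0.095), Mmp17 at −0.28 (0.185), Mmp16 at −0.18 (0.345) and Adamts7 at 0.51 (0.088). At an unadjusted p under 0.05 that fit gave 6 members, and it called 46 genes in all, beside 1008 without the covariate. Other marker lists differed as well, beside a median of 0.02 over all genes. All 10 smooth muscle markers were below 0 (median −0.17, Synpo2 called lower). All 11 macrophage markers were above 0 (median 0.34, Mrc1 called higher), as were all 7 tested neutrophil markers (median 0.59) and all 7 tested Schwann cell markers (median 1.09), with none called in these last lists. All 10 endothelial markers were above 0 (median 0.27, Kdr and Tek called higher), as were all 8 brown adipocyte markers (median 0.88, Fabp3 called higher) and all 7 tested mast cell markers (median 0.69, Cma1 and Tpsb2 called higher). Of the fibroblast markers 8 of 12 were above 0 (median 0.04), and the 1 called, Col1a1, was lower (1090 and 776 CPM, log2 −0.49, adjusted p = 0.033). Because the fat markers themselves differed between these groups, the adipocyte covariate cannot separate a drug difference from one of tissue composition. The part of tissue composition in the protease differences was not tested.

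In replicates 1 to 4 and replicates 5 to 8, a split that the labels do not give as a batch, the 4 genes kept their direction in both sets and none was called in either. The difference of mean log2 CPM was −0.43 and −0.28 for Mmp23, −0.40 and −0.32 for Mmp17, −0.26 and −0.29 for Mmp16, and 0.53 and 0.41 for Adamts7. The days of library construction, 3 in all, are not given per sample in the labels.

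Just beyond the threshold with rofecoxib stood Mmp2 (gelatinase A, which cleaves denatured collagen and basement membrane collagen) and Mmp12. Mmp2 averaged 93.7 ± 13.8 CPM in the controls (68.3 to 110, median 96.2) and 71.9 ± 13.0 with rofecoxib (52.2 to 90.4, median 70.3), or −0.38 on the log2 scale (SE 0.12, edgeR adjusted p = 0.054). 4 of the 8 rofecoxib libraries were below every control. With celecoxib it stood at 61.5 to 105 CPM (median 73.8), a difference of −0.26 (SE 0.12, adjusted p = 0.357). Mmp12 stood at 1.07 to 1.46 CPM in the controls (median 1.21), 0.637 to 2.93 with celecoxib (median 1.38) and 1.33 to 2.98 with rofecoxib (median 2.06). 7 of the 8 rofecoxib libraries lay above every control, and the difference of 0.74 (SE 0.24) had an edgeR adjusted p of 0.0595. DESeq2 called both genes, Mmp2 with an adjusted p of 0.027 and Mmp12 with 0.035.

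Celecoxib was set against plain chow in the same way. No member was called (0 of 31), beside 0.0344% of all genes (5 of 14528), and DESeq2 and limma voom with sample quality weights called none of the 31 either. At an unadjusted p under 0.05 there were 6 members (19.4%, beside 13.6% of all genes): Adamts4, Adamts9, Mmp16, Mmp2 and Mmp8 with negative differences (16.1%, beside 5.83%) and Adamts7 with a positive one (3.23%, beside 7.72%). 20 of the 31 log2 fold changes were below 0, with a median of −0.09, beside 49.6% of all genes and a median of 0.0014. With rofecoxib 15 of 31 were below 0, with a median of 0.03, beside 45.1% of all genes and a median of 0.02. The median was −0.15 for the Mmp genes, −0.05 for the Adamts genes and −0.03 for the Timp genes with celecoxib, and 0.32, −0.02 and 0.07 with rofecoxib. Both drug comparisons share the 8 control libraries.

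The inhibitors did not pass the test with either drug. Timp2 (which inhibits MMPs and also takes part in Mmp2 activation at the cell surface) stood at 575 to 805 CPM in the controls (median 694), 590 to 711 with celecoxib (median 625) and 517 to 761 with rofecoxib (median 599). The rofecoxib difference was −0.19 (SE 0.07, edgeR adjusted p = 0.081) and passed with DESeq2 (0.046) and limma voom (0.028). Timp3 (which stays bound to the matrix and also inhibits ADAMTS enzymes) stood at 394 to 630 CPM in the controls (median 560), 470 to 605 with celecoxib (median 538) and 444 to 654 with rofecoxib (median 506), so the groups overlapped. Timp4, the least abundant at a control median of 20.6 CPM, ranged from 13.8 to 29.7 CPM in the controls, 11.8 to 32.1 with celecoxib (median 21.6) and 12.8 to 34.7 with rofecoxib (median 26.2). Timp1, Timp3 and Timp4 lie inside Syn1, Syn3 and Syn2 on the table's coordinates. Syn1 and Syn3 averaged 3.93 and 1.56 CPM, but Syn2 averaged 13.8 CPM beside 22.6 for Timp4, so Timp4 is the most uncertain of them if the counting did not use strand.

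Mmp3 and Timp1 kept to a narrower range in the controls than with either drug. Mmp3 stood at 297 to 459 CPM in the controls (median 404), 270 to 718 with celecoxib (median 470) and 328 to 661 with rofecoxib (median 518). Timp1 (an inhibitor of most secreted MMPs) stood at 155 to 193 CPM in the controls (median 171), 118 to 248 with celecoxib (median 199) and 131 to 284 with rofecoxib (median 187). The celecoxib differences of 0.26 for Mmp3 (SE 0.17, adjusted p = 0.501) and 0.14 for Timp1 (SE 0.15, adjusted p = 0.689) did not pass. With celecoxib the spread followed the replicate numbers. Celecoxib replicates 1 to 4 stood at 270, 296, 405 and 388 CPM for Mmp3 and replicates 5 to 8 at 572, 534, 718 and 597. For Timp1 the values were 121, 118, 170 and 167 in replicates 1 to 4 and 237, 227, 245 and 248 in replicates 5 to 8. In both genes each of replicates 1 to 4 lay below each of replicates 5 to 8. Against the controls of the same numbers, the log2 difference was −0.19 and 0.59 for Mmp3, −0.37 and 0.55 for Timp1, and −0.64 and 0.51 for Timp4, negative in replicates 1 to 4 and positive in replicates 5 to 8. In replicates 5 to 8 alone, a set chosen after the data were seen, Mmp3 was called higher with celecoxib (0.59, edgeR adjusted p = 0.029). That set holds the higher celecoxib values of Mmp3, so the call is no independent support. In replicates 1 to 4 alone Mmp3 was at −0.18 (edgeR adjusted p = 0.693). What the replicate numbers stand for is not in the labels.

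**Figure D3:**
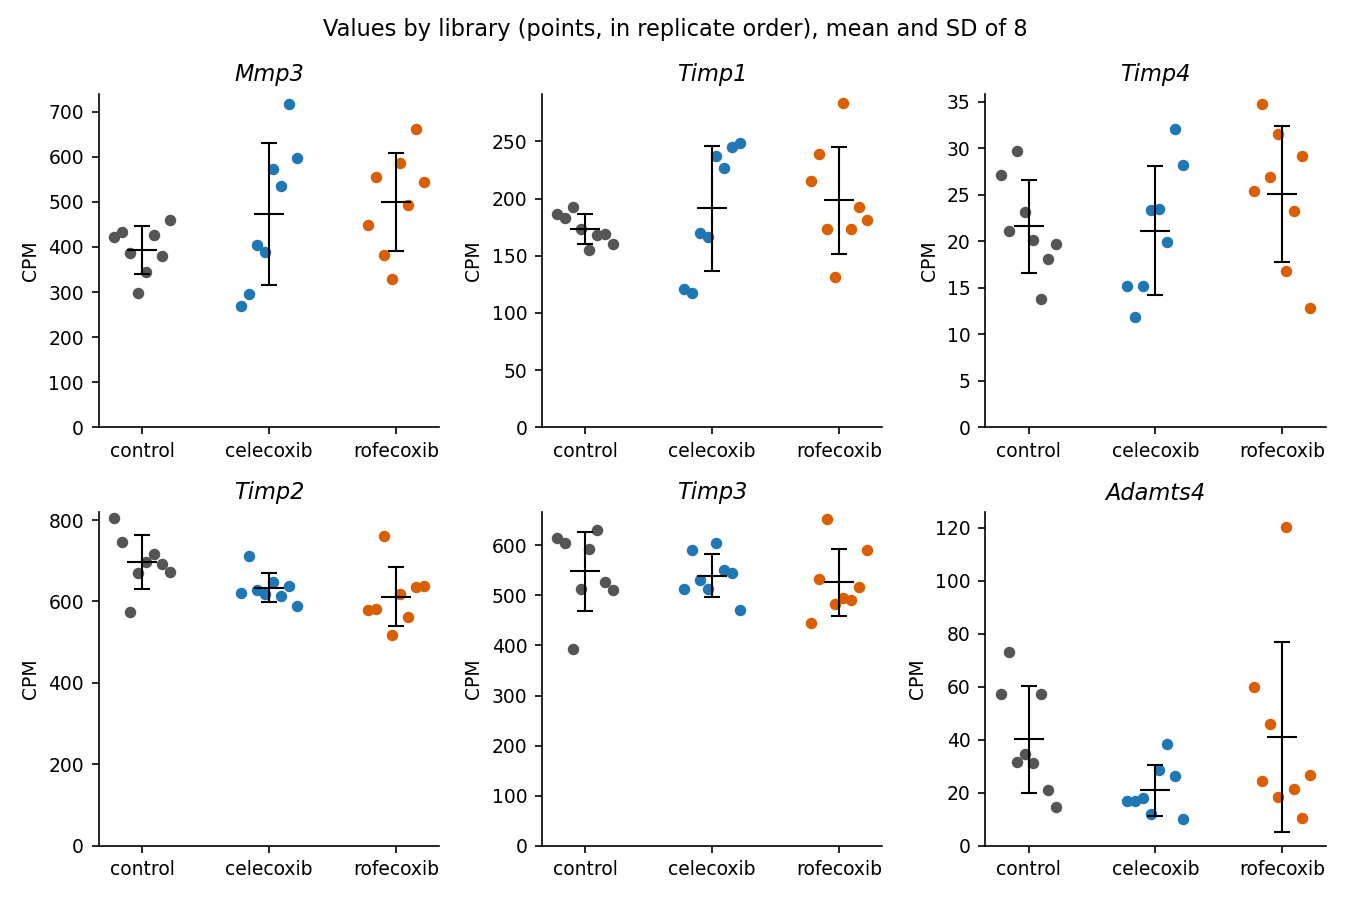
TMM-scaled CPM of Mmp3, Timp1, Timp4, Timp2, Timp3 and Adamts4 in each library of the 3 groups (8 points each), with the group mean and SD. The celecoxib libraries of Mmp3 run from 270 to 718 CPM and those of Timp1 from 118 to 248 CPM, wider than the controls at 297 to 459 and 155 to 193. The rofecoxib libraries, at 328 to 661 and 131 to 284 CPM, also run wider than the controls.

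None of the abundant ADAMTS genes passed the test. Adamts1 stood at 300.1 to 529 CPM in the controls (median 452), 317 to 563 with celecoxib (median 510) and 293 to 558 with rofecoxib (median 440). Adamts15 stood at 331 to 629 CPM in the controls (median 408), 226 to 596 with celecoxib (median 354) and 241 to 565 with rofecoxib (median 320). Adamts2 stood at 208 to 299 CPM in the controls (median 248), 213 to 273 with celecoxib (median 231) and 167 to 247 with rofecoxib (median 222). Their adjusted p ran from 0.188 to 0.933 over both drugs. The aggrecanase Adamts4 had a large difference with celecoxib, 40.1 ± 20.3 CPM in the controls and 20.9 ± 9.47 CPM (SD, n = 8 each), or −0.94 (SE 0.41). However, its edgeR adjusted p was 0.322. Adamts5, also an aggrecanase, stood at 62.4 and 69.9 CPM (0.16, adjusted p = 0.425).

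**Figure D4:**
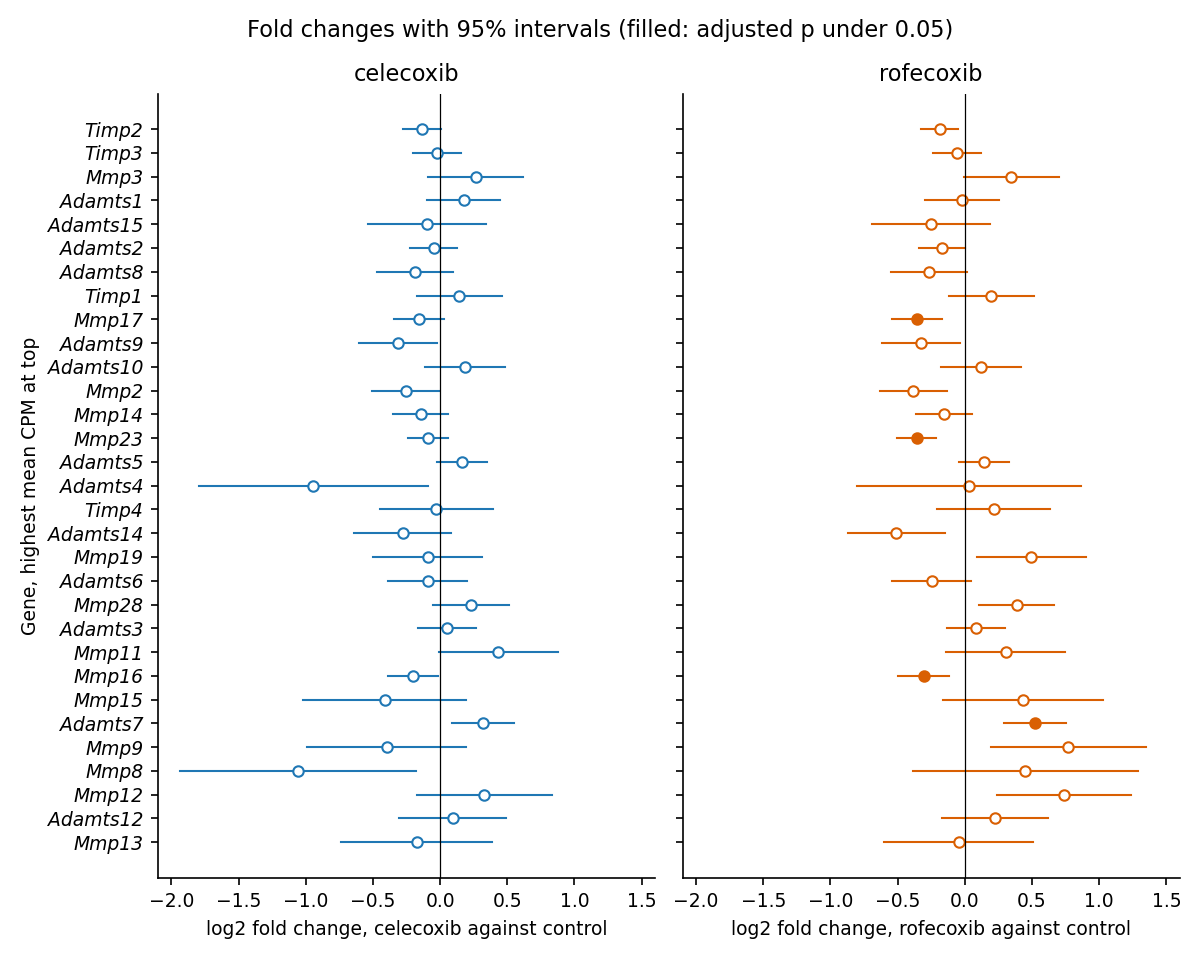
Log2 fold change of the 31 described members with celecoxib and with rofecoxib, each against control, with 95% intervals. Called members are Mmp23, Mmp17, Mmp16 and Adamts7 with rofecoxib and none with celecoxib.

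Set against each other at their unequal doses, the drug groups differed in Mmp8, Mmp9 and Mmp23. These 3 of 31 members (9.68%) stand beside 4.89% of all genes (710 of 14528), of which 4.32% were lower and 0.564% higher with celecoxib. At an unadjusted p under 0.05 there were 7 members (22.6%, beside 23% of all genes). Mmp9 (chr2:164766078-164781552 on mm9, gelatinase B, stored in neutrophil granules and made by macrophages) stood at 1.62 to 4.42 CPM in the controls (median 3.28), 1.10 to 4.34 with celecoxib (median 2.23) and 2.67 to 11.02 with rofecoxib (median 4.67). 5 of the 8 celecoxib libraries lay below every rofecoxib library. The difference of celecoxib from rofecoxib was −1.17 (SE 0.28, 95% interval −1.75 to −0.59, edgeR adjusted p = 0.037), and neither drug was called against control, at −0.40 (adjusted p = 0.547) with celecoxib and 0.77 (0.080) with rofecoxib. Mmp8 (chr9:7558227-7568688 on mm9, neutrophil collagenase) stood at 1.09 to 7.76 CPM in the controls (median 2.83), 0.773 to 2.52 with celecoxib (median 1.72) and 1.12 to 10.4 with rofecoxib (median 3.54). The difference was −1.51 (SE 0.42, 95% interval −2.38 to −0.63, edgeR adjusted p = 0.042), with 3 of 8 celecoxib libraries below every rofecoxib library. Against control Mmp8 was called with neither drug, at −1.06 (adjusted p = 0.285) with celecoxib and 0.45 (0.473) with rofecoxib. Mmp23 was 0.27 higher with celecoxib (SE 0.07, 95% interval 0.12 to 0.42, adjusted p = 0.039).

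Neutrophil and macrophage markers differed in the same comparison as Mmp8 and Mmp9, and so did markers of other cell types. The neutrophil markers summed to 20.8 to 84.7 CPM in the controls (median 37.3), 9.26 to 37.1 with celecoxib (median 22.4) and 21.3 to 123 with rofecoxib (median 55.0). All 7 tested were lower with celecoxib than with rofecoxib, and 5 of them (S100a8, S100a9, Csf3r, Cxcr2 and Retnlg) were called. Cxcr2, a neutrophil chemokine receptor, differed by −1.81 (adjusted p = 0.037). The highest rofecoxib libraries of the neutrophil sum, replicates 1, 5 and 2 at 123, 96.7 and 92.9 CPM, were also the 3 highest for Mmp8, at 10.4, 6.34 and 7.61 CPM, and for Mmp9, at 11.02, 7.01 and 7.79 CPM. Macrophage markers summed to 131 to 284 CPM with celecoxib (median 210) and 170 to 436 with rofecoxib (median 325). All 11 were lower with celecoxib, 5 of them called. Adam8, a protease of leukocytes, was also lower with celecoxib (4.00 against 7.82 CPM, −0.96, adjusted p = 0.037). Fat markers differed in the same comparison, all 12 of the general adipocyte list being lower with celecoxib and 7 of them called. With their mean as a covariate in the edgeR fit Mmp9 was at −0.42, Mmp8 at −0.42 and Mmp23 at 0.19, each with an adjusted p of 0.998. Other lists differed as well, beside a median of 0.0061 over all genes. The median was −1.77 for the 7 tested Schwann cell markers and −1.24 for the 8 brown adipocyte markers, beside −1.38 for the neutrophil list. Of the endothelial markers 9 of 10 were below 0 (median −0.25) and of the smooth muscle markers 9 of 10 were above 0 (median 0.22), none called. The part of leukocyte number, or of any other cell type, in the Mmp8 and Mmp9 difference was not tested.

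The calls between the drugs turned on single libraries. Mmp9 and Mmp23 were lost in 9 of 24 fits that leave out 1 library (celecoxib replicates 2 to 5 and rofecoxib replicates 1 to 4 and 7), with adjusted p up to 0.087, and Mmp8 in 16 of 24, the same ones and also celecoxib replicates 6 and 8, rofecoxib replicate 5 and control replicates 1, 2, 5 and 6. All 3 were lost with only the 2 drug groups in the fit (adjusted p 0.0615 to 0.069). In replicates 5 to 8 alone Mmp9 was at −0.54, Mmp8 at −0.78 and Mmp23 at 0.12 (adjusted p = 0.813 for Mmp23), with none called, while in replicates 1 to 4 alone all 3 were called.

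**Figure D5:**
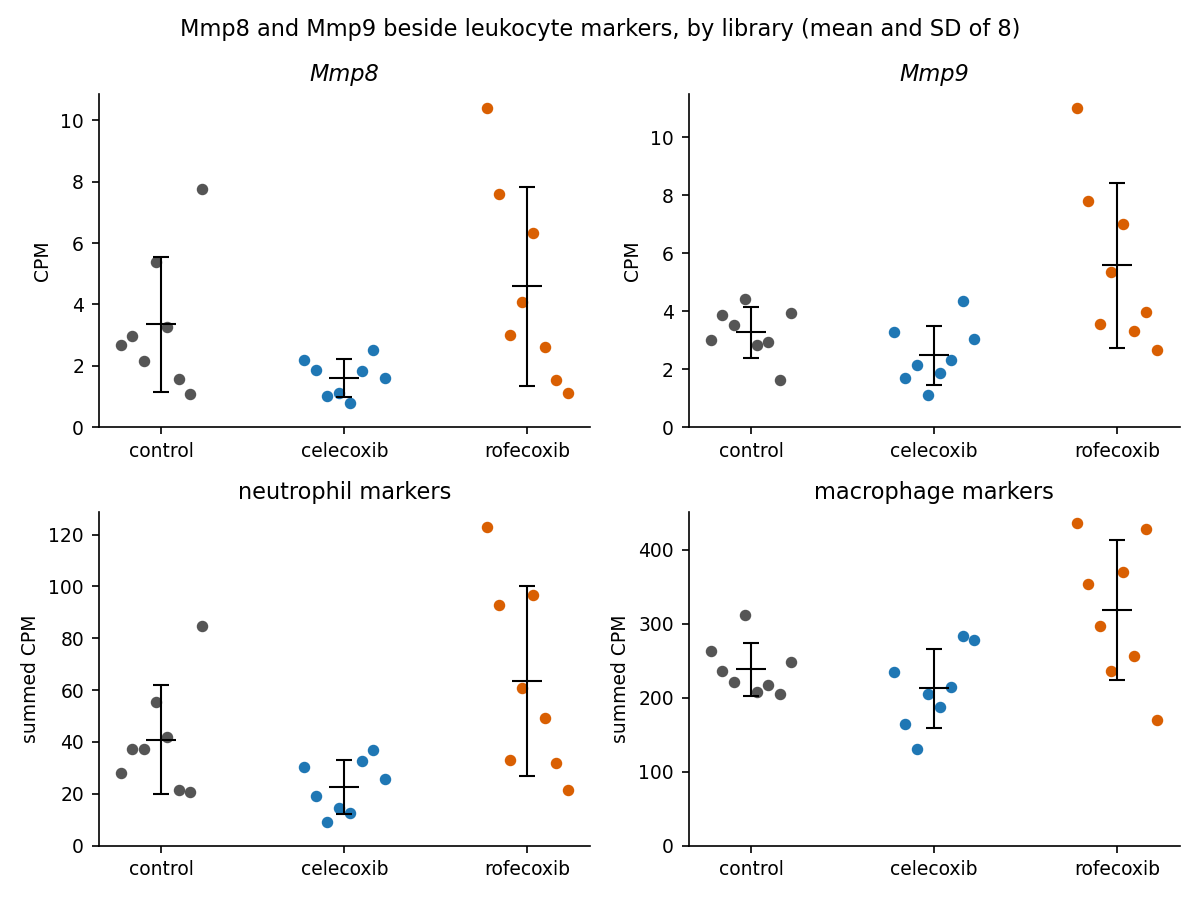
Mmp8 and Mmp9 (TMM-scaled CPM) beside the summed CPM of neutrophil and macrophage markers in each library of the 3 groups (8 points each), with the group mean and SD. The neutrophil sum runs from 9.26 to 37.1 CPM with celecoxib and from 21.3 to 123 with rofecoxib, and Mmp8 from 0.773 to 2.52 and from 1.12 to 10.4.

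Genes that work with these enzymes were taken from 6 lists, and with celecoxib against control none of their genes was called. Among proteoglycan genes, small and large, some of whose products these proteases cut, 4 of 11 tested were called lower with rofecoxib. None was called higher. By sign 8 of the 11 were below 0, beside 45.1% of all genes, and the list median was −0.18 beside 0.02 over all genes. Bgn (biglycan) stood at 7315 ± 638 CPM in the controls and 5795 ± 670 CPM with rofecoxib (SD, n = 8 per group) and fell by 0.34 (edgeR adjusted p = 0.021), Prelp by 0.36 on the log2 scale, Ogn by 0.48 and Aspn by 0.55. Of the 7 ADAMTS-like proteins, which have the ADAMTS repeats without a protease domain, 6 were below 0 and 1 was called lower. The called gene, Adamtsl4, fell from 57.4 ± 6.01 to 40.6 ± 4.68 CPM (−0.50, SE 0.10, edgeR adjusted p = 0.0095). All 8 rofecoxib libraries lay below every control (0.509% of all genes were lower without overlap).

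The other lists held no call with rofecoxib against control. Of 10 genes that control proenzyme activation, 5 were below 0 and 2 passed an unadjusted p under 0.05. Of 10 other inhibitors and regulators, Reck, a membrane inhibitor of MMPs, stood at 117 and 102 CPM (−0.20, adjusted p = 0.057). Of 8 ADAM proteases 4 were below 0. Of 12 AP-1 and ETS transcription factor genes, 10 were below 0 with a median of −0.16, none was called, and Ets2 stood at 249 and 206 CPM (−0.27, adjusted p = 0.056), beside 45.1% of all genes below 0. Between the drugs, Pcsk6, a proprotein convertase, was lower with celecoxib (−0.38, adjusted p = 0.048) and Ogn was higher (0.40, adjusted p = 0.040).

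The remaining described members gave no call in any of the 3 comparisons. With rofecoxib against control the smallest adjusted p among them belonged to Adamts14 at −0.51 (adjusted p = 0.068), Mmp28 at 0.39 (0.074), Mmp19 at 0.50 (0.10) and Adamts9 at −0.32 (0.138). The membrane-type enzymes Mmp14 and Mmp15, of which Mmp14 activates the Mmp2 proenzyme, stood at −0.15 (adjusted p = 0.309) and 0.43 (0.322), and Mmp15 with rofecoxib ranged from 2.65 to 15.8 CPM, the top value being replicate 5. Adamts3, Adamts6, Adamts8, Adamts10, Adamts12, Mmp11 and Mmp13 lay between −0.26 and 0.30 with rofecoxib. The 13 members under 0.5 CPM were Mmp7, Mmp10, Mmp20, Mmp21, Mmp24, Mmp25, Mmp27, Adamts13, Adamts16, Adamts17, Adamts18, Adamts19 and Adamts20, with means from 0.0077 to 0.482 CPM, and of these only Mmp27 passed the expression filter.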

How the data were processed

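Poly(A)-selected RNA of 24 thoracic aortas (8 per group) was sequenced. The authors deposited whole-number read counts per gene, with mm9 positions, and the tools listed per the submitters' processing notes were CASAVA 1.8.1 and STAR 2.5.1b. The sources used here do not give the counting program, the annotation or the use of strand. Library totals, 21668798 to 21700121 reads, are nearly equal, and how they came to be so is not stated.

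The counts were fitted in edgeR 4.0.16 (R 4.3.3) with TMM scaling, the default expression filter and the quasi-likelihood test, with all 24 libraries and 3 groups in 1 model. Each of the 3 pairs of groups was tested two-sided, with Benjamini-Hochberg adjustment over all 14528 genes at 0.05. SE is the absolute log2 fold change divided by the square root of F. CPM values are TMM-scaled, and levels per kb use merged exon lengths of the GENCODE M21 annotation on GRCm38. Alternatives used other scaling, filters, DESeq2 1.42.0, limma 3.58.1 voom with sample quality weights, other designs and left-out libraries. The fit was checked on simulated counts with known changes. Of 1.25-fold changes, 40% were called for celecoxib against control and 38% for rofecoxib against control. Of 1.5-fold changes 64% were called in each, and of 2-fold changes 88% and 94%. False calls numbered 5 and 7. Many changes of the smaller sizes would thus not be called. Each size was planted in 50 genes, and the adjusted p depends on how many genes change. The shares therefore need not hold for celecoxib against control, where 5 genes were called in the real counts. In that comparison Mmp8 at 0.480-fold (edgeR adjusted p = 0.285) and Adamts4 at 0.519-fold (0.322) were not called.

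The members and lists were chosen with earlier results of these data known. Per-group ranges are given for members called in any comparison, the TIMPs, the 6 highest by mean CPM and the 6 with the smallest p in either drug comparison with control. From each list, up to 4 called genes, or otherwise up to 2 with the smallest p, are named. A gene of the proenzyme activation list is not reported here. Lists covered fibroblast, smooth muscle, macrophage, neutrophil, endothelial, general and brown adipocyte, skeletal muscle, Schwann, mast cell and chondrocyte markers, proenzyme activation, other inhibitors, ADAMTS-like, ADAM, proteoglycan and AP-1 or ETS genes: 170 of 171 distinct symbols matched the table. In the skeletal muscle and chondrocyte lists no gene was called in any comparison. All 7 tested Schwann cell and all 8 brown adipocyte markers were lower with celecoxib than with rofecoxib, 5 and 3 of them called.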

Additional observations from a re-analysis of the deposited data

Results flagged for a closer look

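Among 48 sets of 8 libraries examined (16 members in 3 groups), 2 had a library far from the rest, where chance gives about 1 in 20. For Adamts1 with celecoxib, replicate 6 was lowest at 317.1 CPM and the next at 465.8. For Mmp23 with celecoxib, replicate 2 was highest at 99.56 CPM and the next at 77.66. Without celecoxib replicate 2 the difference of Mmp23 between the drugs was 0.21 and was not called (edgeR adjusted p = 0.078).

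The effects of the drugs differed for 3 members by the test of celecoxib against rofecoxib, at unequal doses. The log2 difference was 0.27 for Mmp23, −1.17 for Mmp9 and −1.51 for Mmp8. For Mmp8 and Mmp9 the neutrophil marker sum was lower with celecoxib in the same libraries (median 22.4 against 55.0 CPM), and its part in the difference was not tested.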

How the results depend on the processing

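Depth limits the low members: Mmp8, Mmp12, Mmp13 and Adamts12 rest on few reads per library. The labels do not say whether same-number samples were paired, and the correlations do not settle it. Of 24 same-number pairs, 12 correlated over 0.1 (−0.327 to 0.572), and 7 of 24 libraries correlated best with their own number. The share that chance would give was not worked out. With the replicate block 27 genes were called for celecoxib against control, 1187 genes and 6 members for rofecoxib against control, and 0 genes and 0 members between the drugs (3169 and 6 at an unadjusted p under 0.05), where the unblocked fit had 5, 1008, 4, 710 and 3. The cause of the changes below was not tested.

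For celecoxib against control the genes called numbered 2 with no filter, 107 with DESeq2, 121 with limma voom and sample quality weights together (called limma voom from here), 45 with only the groups compared, 174 with replicates 1 to 4 against 5 to 8 as a term, 3 with the adipocyte covariate, 9 in replicates 1 to 4 alone, and 313 when only replicates 5 to 8 were fitted (these last 2 fits were added after seeing the data). Members called there numbered 0 in each of these fits except the last, which called 1, Mmp3. For rofecoxib against control, genes called were 557 with no filter, 1797 with DESeq2, 2447 with limma voom, 1735 with the term, 46 with the covariate, 42 and 401 in the 2 sets of replicates, and 1427 with library size alone, 1109 of them higher and 318 lower, against 563 and 445 with TMM and 498 and 502 with RLE. Members called were 8 with DESeq2, 10 with limma voom, 7 with the term, and 0 with the covariate (6 unadjusted), 0 in replicates 1 to 4 (10 unadjusted) and 0 in replicates 5 to 8 (12 unadjusted). Between the drugs, edgeR called 0 genes and 0 members with no filter (4367 and 7 unadjusted), with only the groups compared (2816 and 6), with the covariate (546 and 1) and in replicates 5 to 8 alone (896 and 2), DESeq2 called 1425 genes and 5 members, and replicates 1 to 4 alone gave 2073 genes and 8 members.

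Leaving out each library in turn gave 0 to 34 genes and 0 to 0 members for celecoxib against control, 358 to 1945 genes and 2 to 7 members for rofecoxib against control, and 0 to 1997 genes and 0 to 6 members between the drugs. The 2 came without rofecoxib replicate 7, control replicate 1 or control replicate 2, and the 7 without rofecoxib replicate 8.

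Signs turned only for differences that were not called. With library size alone, Timp3 and Timp4 stood at 0.0017 and 0.00022 with celecoxib and Timp3 and Adamts1 at 0.0044 and 0.035 with rofecoxib. With limma voom, Mmp12 stood at −0.028 with celecoxib and Adamts1 at 0.033 with rofecoxib. With the covariate, Timp4 stood at 0.057 with celecoxib, Timp3 at 0.030, Timp4 at −0.12 and Mmp8 at −0.44 with rofecoxib, and Mmp16 at −0.062 between the drugs. In replicates 1 to 4 alone, Timp3 stood at 0.017, Mmp3 at −0.18, Timp1 at −0.35 and Mmp12 at −0.36 with celecoxib, and Adamts15 at 0.22 with rofecoxib. In replicates 5 to 8 alone, Timp4 stood at 0.53 and Mmp9 at 0.035 with celecoxib, Mmp8 at −0.24 with rofecoxib and Mmp16 at −0.0058 between the drugs. Leaving out each library gave −0.079 to 0.0097 for Timp3, −0.080 to 0.00044 for Adamts2 and −0.14 to 0.060 for Timp4 with celecoxib, and −0.088 to 0.042 for Adamts1 with rofecoxib.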

Other observations

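Some of the members too scarce to describe had reads in a pattern, noticed after the values were seen and not tested. Mmp10 (stromelysin-2), next to Mmp3 on chromosome 9, had 14 reads over the 8 control libraries, 1 or 2 in each. It had 2 reads over the 8 celecoxib libraries, both in 1 library, and 3 reads over the 8 rofecoxib libraries, in 3 of them. At these counts a read more or less decides whether a gene is seen in a library. Mmp25 (leukolysin, a leukocyte MMP) had 41 reads in the controls, 26 with celecoxib and 98 with rofecoxib, of which rofecoxib replicates 1, 2 and 5 held 24, 26 and 19. Those 3 libraries were also the highest of their group for neutrophil markers. Adamts20 and Mmp24 each had their highest count in rofecoxib replicate 5, at 64 and 30 reads, and the same library had the highest Schwann cell marker sum, 536 CPM, where the median of its group was 89.6 CPM. It was also the highest for Mmp15 and Adamts4, at 15.8 and 120 CPM.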
